A study of Homo sapiens with 12 samples.

Results

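Nuclear tRNA genes were examined for protein contact in 12 PAR-CLIP libraries of HepG2 cells. The members were the tRNA genes that RefSeq lists for GRCh38.p14 outside the mitochondrial genome, under the names of the genomic tRNA nomenclature. Of 443 listed genes, 428 were placed on hg38 with a strand read from the sequence itself, and these made up 264 distinct gene sequences, 208 of which occurred in a single gene. A cluster, the interval in which the peak caller found crosslinked reads, was assigned to a tRNA gene when it overlapped the gene by 1 nt or more on the same strand. Of 102250 clusters in all, 119 lay on 72 of the 428 tRNA genes, and these 72 genes held 55 distinct sequences.

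A tRNA gene is transcribed by RNA polymerase III as a precursor with a short leader before the mature tRNA and a trailer after it that ends in a run of U. The leader is cut off by RNase P and the trailer by RNase Z, the CCA end is then added, and some tRNAs also lose an intron next to the anticodon. Most tRNAs fold into acceptor, D, anticodon and T arms with a short variable loop, while leucine, serine and selenocysteine tRNAs carry a long variable arm in its place. METTL1, the catalytic subunit, and WDR4, its RNA-binding partner, form the complex that places m7G in the variable loop of a subset of tRNAs, and the study asked about internal m7G in mRNA and about IGF2BP1, IGF2BP2 and IGF2BP3, mRNA-binding proteins, as its readers.

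The libraries came from wildtype HepG2, a human liver cancer cell line with an epithelial-like shape, grown with 4-thiouridine, crosslinked with ultraviolet light and digested with RNase T1. IGF2BP1, IGF2BP2, METTL1 and WDR4 had 2 libraries each, and IGF2BP3 had 4, of which 2 carried the label bio2. Neither input RNA nor a mock precipitate was sequenced in this set, so the background on tRNA, which is abundant in every cell, was not measured. The libraries held between 4581 and 15701 clusters, listed as intervals without scores, so the depth behind a cluster was unknown and an absent cluster sets no upper limit on binding.

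Sequences of the genes on which the results turn follow, read from hg38 on the strand of the gene, with the bases covered by clusters in capitals. The first set shows the stretch that leucine tRNAs had covered, from the variable arm to the T loop. Leu-AAG2-4 lies at chr16:22297140-22297221, plus strand, Leu-TAA1-1 at chr6:144216547-144216629, plus strand, and Leu-TAG2-1 at chr14:20625370-20625451, plus strand, with capitals for the clusters of all libraries.
Leu-AAG2-4: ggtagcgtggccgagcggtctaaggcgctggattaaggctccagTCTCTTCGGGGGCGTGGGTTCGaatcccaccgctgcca
Leu-TAA1-1: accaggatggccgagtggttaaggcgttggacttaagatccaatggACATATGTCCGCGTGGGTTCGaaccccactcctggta
Leu-TAG2-1: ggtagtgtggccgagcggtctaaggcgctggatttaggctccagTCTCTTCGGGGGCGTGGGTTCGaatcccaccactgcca

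The second set shows clusters that ran past the annotated gene ends, into the leader or the trailer of the precursor. Tyr-GTA2-1 (chr2:27050782-27050870, plus strand), Ala-CGC3-1 (chr2:156400769-156400840, plus strand) and Asp-GTC2-6 (chr6:27479674-27479745, plus strand) have capitals for METTL1 replicate 1, while Pro-TGG3-5 (chr16:3188094-3188165, plus strand) and Thr-TGT6-1 (chr5:181191687-181191758, minus strand) have them for all libraries. The last 16 bases printed for Tyr-GTA2-1, the last 6 for Ala-CGC3-1, the last 14 for Asp-GTC2-6 and the last 5 for Pro-TGG3-5 lie after the gene, and the first 5 of Ala-CGC3-1 and the first 7 of Thr-TGT6-1 lie before it.
Tyr-GTA2-1: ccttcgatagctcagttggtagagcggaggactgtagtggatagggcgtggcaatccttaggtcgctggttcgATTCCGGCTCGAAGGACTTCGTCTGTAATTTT
Ala-CGC3-1: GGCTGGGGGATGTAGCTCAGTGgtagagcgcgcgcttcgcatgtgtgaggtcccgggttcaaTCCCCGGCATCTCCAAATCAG
Asp-GTC2-6: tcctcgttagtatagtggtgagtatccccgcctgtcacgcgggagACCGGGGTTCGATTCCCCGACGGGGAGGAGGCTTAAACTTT
Pro-TGG3-5: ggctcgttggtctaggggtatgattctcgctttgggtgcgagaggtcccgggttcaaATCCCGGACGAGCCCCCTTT
Thr-TGT6-1: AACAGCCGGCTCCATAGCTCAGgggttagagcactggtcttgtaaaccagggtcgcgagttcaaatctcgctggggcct

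The third set shows the clusters of the IGF2BP3 bio2 libraries that began at the first base of the mature tRNA, together with one at the end of the initiator methionine tRNA. Capitals are for bio2 replicate 1, except in Arg-TCT1-1, where both bio2 libraries had the same interval. The genes are Gly-GCC1-5 (chr21:17454789-17454859, minus strand), Lys-CTT4-1 (chr16:3191501-3191573, plus strand), Val-AAC2-1 (chr5:181188416-181188488, minus strand), Arg-TCT1-1 (chr1:93847573-93847657, plus strand) and iMet-CAT1-1 (chr1:153671250-153671321, plus strand).
Gly-GCC1-5: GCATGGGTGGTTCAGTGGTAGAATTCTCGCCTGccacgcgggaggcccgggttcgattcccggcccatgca
Lys-CTT4-1: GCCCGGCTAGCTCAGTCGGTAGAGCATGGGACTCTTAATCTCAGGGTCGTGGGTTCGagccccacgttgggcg
Val-AAC2-1: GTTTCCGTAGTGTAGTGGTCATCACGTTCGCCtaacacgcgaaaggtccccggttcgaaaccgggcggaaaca
Arg-TCT1-1: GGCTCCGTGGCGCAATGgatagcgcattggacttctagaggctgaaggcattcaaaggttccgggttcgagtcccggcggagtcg
iMet-CAT1-1: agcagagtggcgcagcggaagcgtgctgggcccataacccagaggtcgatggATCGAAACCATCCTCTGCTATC

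The METTL1 libraries had the most clusters on nuclear tRNA genes. METTL1 replicate 1 had 24 and replicate 2 had 33, or 0.363% and 0.382% of all clusters of the library. The WDR4 libraries had 13 and 10, or 0.133% and 0.109%. The IGF2BP3 bio2 libraries had 15 and 20, or 0.232% and 0.333%, which placed them between WDR4 and METTL1. The other 6 IGF2BP libraries had almost none, with 2 and 1 clusters for IGF2BP1, 0 and 1 for IGF2BP2, and 0 and 0 for IGF2BP3. Their shares ran from 0% to 0.0138%, below all 6 of the other libraries.

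The share of clusters on tRNA genes averaged 0.247% ± 0.146 (SD, n = 4) over METTL1 and WDR4 and 0.0748% ± 0.131 (SD, n = 8) over the IGF2BP libraries. This difference of 0.172 percentage points did not pass the threshold of 0.05 (exact permutation test over all regroupings of 12 libraries into 8 and 4, two-sided, p = 0.0667, adjusted p = 0.15 over the 9 results of this kind). Without the bio2 libraries the IGF2BP mean was 0.00559%, and the difference of 0.241 percentage points passed (exact permutation test, p = 0.00476, the smallest possible, adjusted p = 0.0214). The 2 libraries left out had the highest shares on tRNA genes of all IGF2BP libraries. Leaving them out separated the groups completely, so this p was set by that choice and adds no support. The 2 IGF2BP3 libraries without the bio2 label stood at 0% and those with it at 0.232% and 0.333%, with no test of this difference. METTL1 lay above WDR4 in both replicates, with 95% Wilson intervals of 0.244% to 0.539% and 0.272% to 0.535% for METTL1, against 0.0778% to 0.228% and 0.0590% to 0.200% for WDR4. These intervals cover counting error only, and the 2 proteins were not tested against each other.

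**Figure D1:**
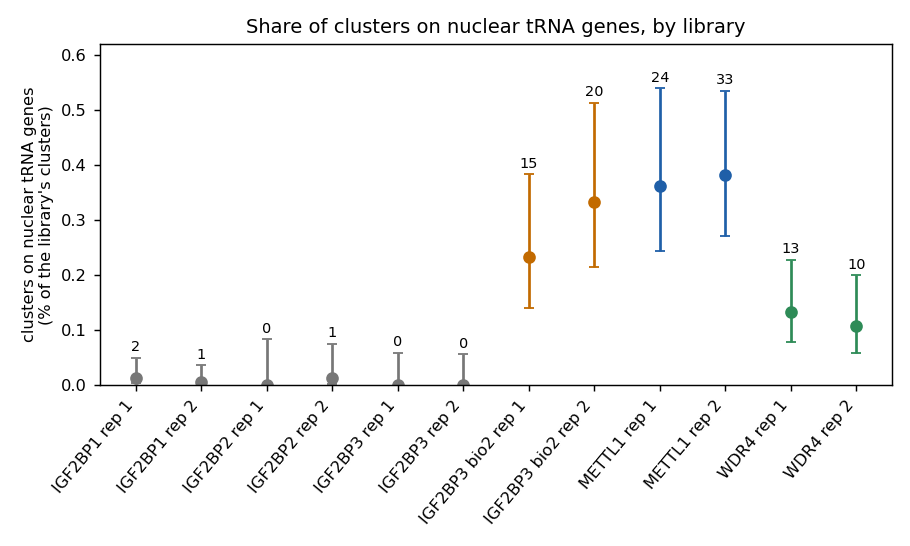
Percentage of the clusters of each library that overlapped a nuclear tRNA gene on the same strand (points), with 95% Wilson intervals (bars) and the number of such clusters above each bar. The 6 IGF2BP libraries without the bio2 label sat at or below 0.0138%, the bio2 libraries at 0.232% and 0.333%, METTL1 at 0.363% and 0.382%, and WDR4 at 0.133% and 0.109%.

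The METTL1 libraries reached the most distinct tRNA sequences, 20 and 28, while WDR4 covered 12 and 9 and the bio2 libraries 12 and 13. Per 1000 clusters these were 3.02 and 3.24 in METTL1, 1.23 and 0.978 in WDR4 and 1.86 and 2.16 in bio2, so that WDR4 lay below bio2. The mean was 2.12 ± 1.18 (SD, n = 4) for METTL1 and WDR4 and 0.545 ± 0.910 (SD, n = 8) for the IGF2BP libraries (exact permutation test, two-sided p = 0.0222, adjusted p = 0.1). The unadjusted value passed the threshold and the adjusted value did not. Without the bio2 libraries the difference rose from 1.57 to 2.06 (exact permutation test, p = 0.00476, adjusted p = 0.0214). The bio2 libraries had the highest IGF2BP values here too, so this p was likewise set by leaving them out.

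No cluster lay antisense to a tRNA gene in any of the 12 libraries. Mitochondrial tRNA genes, encoded in the mitochondrion and processed there, carried 169 clusters, 0.199% ± 0.0342 (SD, n = 4) of clusters in METTL1 and WDR4 and 0.168% ± 0.0651 (SD, n = 8) of the IGF2BP clusters, and the test did not separate them (exact permutation test, p = 0.382, adjusted p = 0.491). The IGF2BP libraries without the bio2 label that had no cluster on a nuclear tRNA gene had 6, 10 and 11 on mitochondrial ones.

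Outside the bio2 libraries, the clusters on tRNA genes were short. Their median width was 22 nt in METTL1 and 23 nt in WDR4, while the median over all clusters of these libraries was 38 nt to 41 nt. Of the tRNA clusters, 95.8% and 93.9% in METTL1 and 100% and 90% in WDR4 were narrower than the median cluster of their own library. The bio2 libraries differed, with a median tRNA cluster of 33 nt and 34 nt beside 34 nt and 35 nt over all clusters, and with 53.3% and 50% of them narrower than the median. When only clusters at or above the median width of their library were counted, METTL1 and WDR4 fell to 0.0238% and the IGF2BP mean was 0.0666%, which turned the direction of the difference to -0.0427 percentage points (exact permutation test, p = 0.758, adjusted p = 0.857).

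RNase T1 cuts RNA after G, and the base before a cluster was G for 74.5% to 94.7% of all clusters in the 12 libraries. On tRNA genes it was G for 13 of 24 and 20 of 33 clusters in METTL1, 7 of 13 and 3 of 10 in WDR4, and 7 of 15 and 8 of 20 in bio2. The share lay below that of all clusters in each of these 6 libraries, with no test of the difference. In 22 clusters the start was the first base of the mature tRNA. Among the 97 clusters that did not start there, the base before was G for 56, or 57.7%.

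The covered part of the tRNA is given by library set, and none of the 4 measures of position passed after adjustment (exact permutation tests, adjusted p from 0.0714 to 0.857). With 5 IGF2BP libraries against 4, 1 measure alone could not pass after adjustment, even at the smallest possible p. METTL1 and WDR4 clusters gathered at the 3′ side, where the most covered positions were position 60 of the gene in METTL1 (64.9% of its 57 clusters) and position 65 in WDR4 (60.9% of its 23). In bio2 the most covered position was 30, with 65.7% of the 35 clusters, and the midpoint lay in the 5′ part of the gene for 40% of clusters in replicate 1 and 65% in replicate 2. The clusters of the remaining IGF2BP libraries, 4 in all, lay in leucine tRNAs, between positions 45 and 67. Sorted by the first class that applied, 8 of the 119 clusters reached into a leader, 35 ran 4 nt or more into a trailer, 10 ended 1 nt to 3 nt past the gene, 21 began at base 1, 24 covered the leucine variable arm, and 21 lay elsewhere inside the gene.

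**Figure D2:**
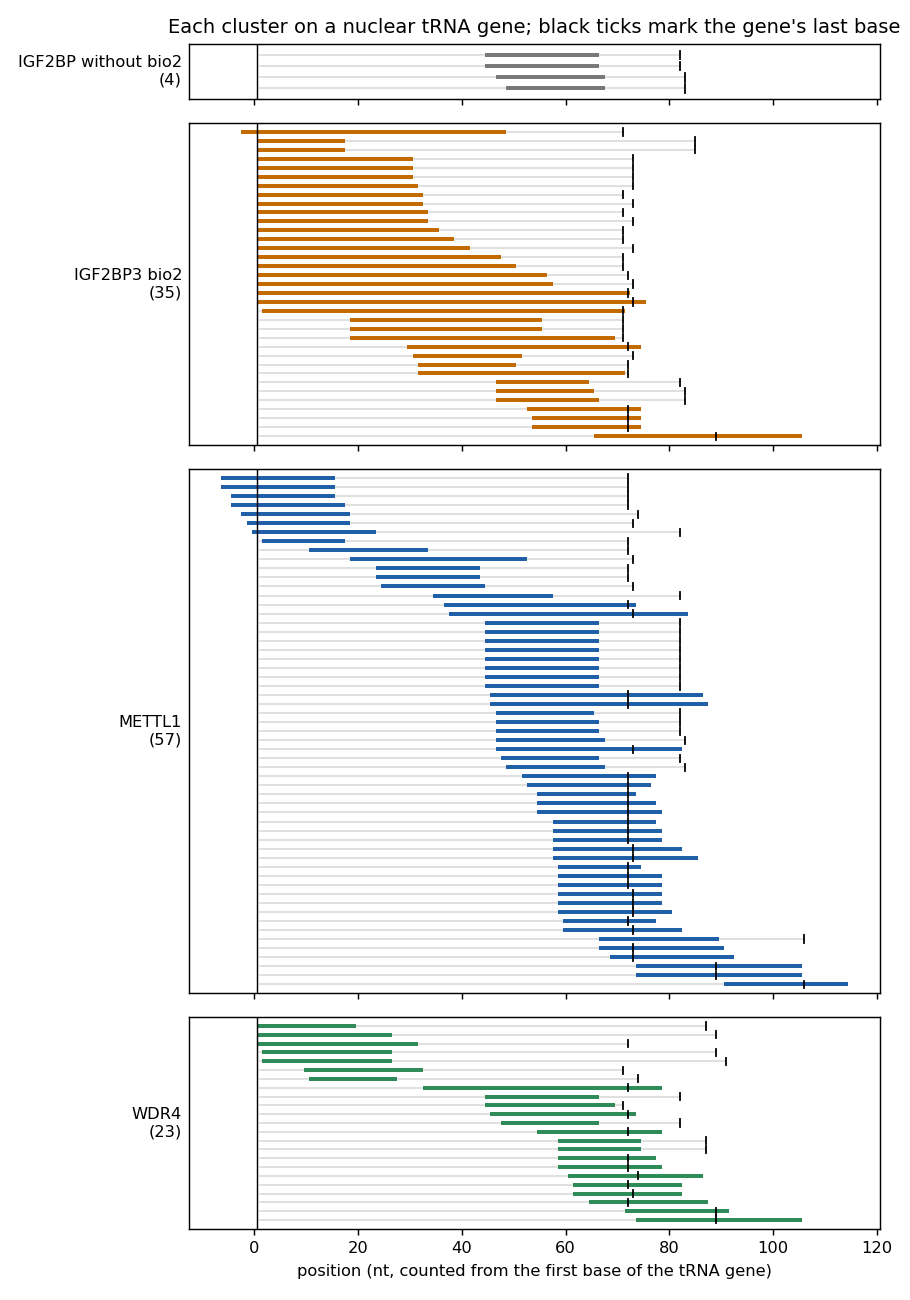
Every cluster on a nuclear tRNA gene (coloured bars), in nt from the first base of the gene, with the gene in grey, its last base as a black tick, and 1 row for each cluster, grouped by library set. The bio2 bars begin at the first base in 19 of 35 rows, whereas 34 of the 80 METTL1 and WDR4 bars run 4 nt or more past the last base.

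The share of tRNA clusters that reached past the 3′ gene end had the smallest p of the 9 results. It was 50% and 48.5% in METTL1 and 46.2% and 50% in WDR4, a mean of 48.7% ± 1.82 (SD, n = 4). In the 5 IGF2BP libraries with any tRNA cluster it was 7% ± 9.75 (SD, n = 5), made up of 20% and 15% in bio2 and 0% in the other 3, which had 1 or 2 clusters each. The groups did not overlap (exact permutation test, two-sided p = 0.00794, the smallest that 5 against 4 libraries allow). After adjustment over the 9 results, p was 0.0714, so the difference did not pass. At this smallest p, 1 result alone could not pass the adjustment over 9. The outcome therefore does not measure the strength of the difference. The CCA end of mature tRNA is not encoded in the gene and adds 3 nt, so clusters were also counted from 4 nt past the gene. The means were then 41.1% and 1%, with the same exact permutation p of 0.00794.

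A total of 35 clusters ran 4 nt or more past the 3′ end, and 34 of them came from METTL1 and WDR4. They fell in 23 genes of 15 isotypes, the amino acid classes of tRNA, and reached from 4 nt to 19 nt beyond the gene, with a median of 7.5 nt in METTL1 and WDR4. All 23 genes had a run of TTTT, the letters at which RNA polymerase III stops, within 40 nt after the gene on the same strand, as did 88.1% of all 428 tRNA genes. Of the 35 clusters, 21 reached that run and covered 2 to 5 bases of it, 14 stopped before it, and none passed it by more. In Tyr-GTA2-1, Asp-GTC2-6 and Pro-TGG3-5, printed above, the capitals end inside the run.

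Tyr-GTA2-1, a single-copy gene with an intron after the anticodon, had a cluster over its 3′ end in 5 libraries, METTL1 replicates 1 and 2, WDR4 replicates 1 and 2 and bio2 replicate 2. Both METTL1 libraries and WDR4 replicate 1 covered the same positions, 74 to 105 of a gene of 89 nt. Bio2 replicate 2 covered positions 66 to 105, and WDR4 replicate 2 positions 72 to 91. Of these 5 intervals, 4 ended at the same base, 16 nt after the gene. Both WDR4 libraries had a second cluster at the 5′ end of this gene, at positions 1 to 26 and 2 to 26, and no METTL1 library had one. The central 20 nt of these 5′ clusters occurred in 5 places in hg38, 4 of them on tRNA genes, so their gene is uncertain. WDR4 replicate 1 also had a cluster at positions 2 to 26 of Tyr-GTA1-1.

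Ala-CGC3-1, also a single-copy gene, had a cluster over its 3′ end in all 4 METTL1 and WDR4 libraries and in none of the 8 IGF2BP libraries. These clusters covered positions 58 to 78 and 55 to 78 in METTL1 and 59 to 78 and 55 to 78 in WDR4, for a gene of 72 nt, and all 4 ended at the same base. That base lies before the TTTT run, which starts 18 nt after this gene. METTL1 replicate 1 had a second cluster on this gene, from 5 nt before its first base to position 17.

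Asp-GTC2-6 is one of 11 identical copies of the aspartate tRNA, and no other copy had a cluster. The mapping dropped reads with over 10 best positions, so reads lying wholly inside this gene sequence could not be kept. Empty copies therefore do not show that only Asp-GTC2-6 was contacted. METTL1 covered positions 46 to 86 and 46 to 87 and WDR4 replicate 1 positions 65 to 87 of this 72 nt gene, so that each interval held trailer sequence. Proline genes had 9 clusters on 8 of 20 genes, all in METTL1 or WDR4. Of these, 7 ran 5 nt to 10 nt past the 3′ end, the most of any isotype, with Pro-CGG2-1 in WDR4 replicate 1 at 10 nt. Val-TAC2-1 in METTL1 replicate 1 reached farthest, 19 nt past its gene, and that cluster covered 6.85% of the gene itself.

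**Figure D3:**
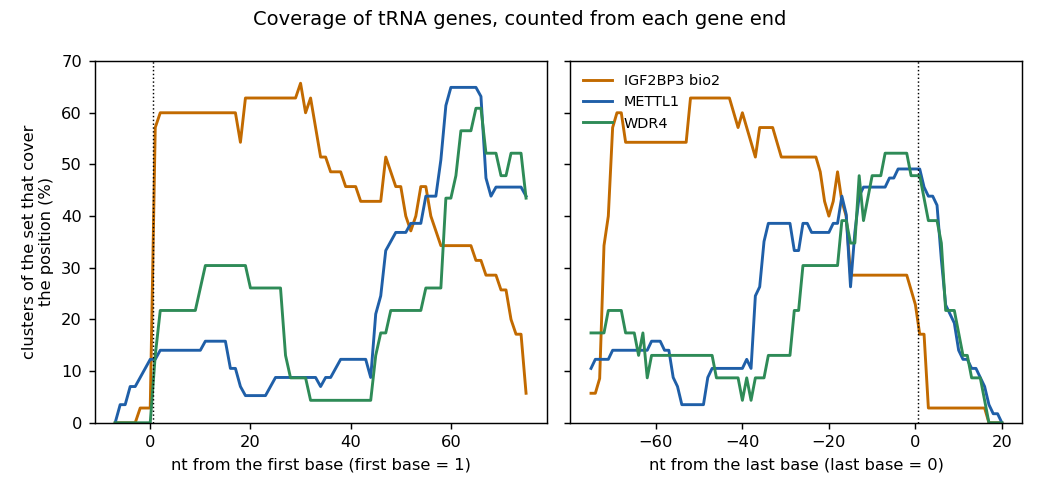
Percentage of the tRNA clusters of bio2 (35), METTL1 (57) and WDR4 (23) that cover each position, counted in nt from the first base of the gene (left) and from its last base (right), with dotted lines at the gene ends. METTL1 and WDR4 peak near the 3′ end, at 49.1% at the last base for METTL1 and 52.2% at 2 nt before it for WDR4, while bio2 peaks at position 30 with 65.7%.

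Other genes were covered at different places in METTL1 and WDR4. Gln-CTG1-2, one of 5 identical glutamine genes, had positions 37 to 73 and 55 to 73 covered in METTL1 and 46 to 73 in WDR4 replicate 2, and all 3 clusters ended 1 nt past the gene. Ala-AGC8-1 had positions 59 to 78 in both METTL1 libraries, which is 5 nt past the gene, and Pro-AGG2 had 1 gene in each METTL1 library, at positions 60 to 77 and 59 to 78. Glutamate genes were covered in the anticodon arm as well. Glu-TTC3-1 had positions 11 to 33 and 24 to 43 in METTL1 and 1 to 31 in WDR4 replicate 1, and Glu-TTC2-2 had positions 24 to 43 and 59 to 78 in METTL1 replicate 2, 33 to 78 in WDR4 replicate 2 and 32 to 71 in bio2 replicate 1.

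Leaders were covered less often than trailers. They were reached by 7 METTL1 clusters, 3 in replicate 1 and 4 in replicate 2, by 1 bio2 cluster and by no WDR4 cluster. The METTL1 clusters lay in 6 genes of 6 isotypes and started 1 nt to 7 nt before the gene. Thr-TGT6-1, a single-copy threonine tRNA gene, had the same interval in both METTL1 libraries, from 7 nt before the gene to position 15. The others, on Ala-CGC3-1, Pro-TGG3-2, Lys-CTT2-5, Asn-GTT1-1 and Ser-AGA4-1, were seen in 1 library each. The share of tRNA clusters that began before the gene was 6.16% ± 7.11 (SD, n = 4) in METTL1 and WDR4 and 1.33% ± 2.98 (SD, n = 5) in IGF2BP libraries, and the test did not separate them (exact permutation test, p = 0.286, adjusted p = 0.491).

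Leucine tRNAs were covered by the widest range of libraries. A total of 25 clusters lay on 11 of 32 leucine genes in 9 libraries, and 24 of these sat inside the gene, from the variable arm to the T loop, ending 16 nt to 18 nt before the 3′ end. All 4 tRNA clusters of the IGF2BP libraries without bio2 were of this kind. IGF2BP1 replicate 1 had positions 45 to 66 of Leu-AAG2-4 and 47 to 67 of Leu-TAA1-1, IGF2BP1 replicate 2 had 49 to 67 of Leu-TAA1-1, and IGF2BP2 replicate 2 had 45 to 66 of Leu-AAG2-3. METTL1 had 15 such clusters, 8 and 7 by replicate, over 9 genes. WDR4 had 2 and bio2 had 3.

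The intervals on leucine tRNAs were nearly the same in each library. Of Leu-TAA1-1, a single-copy gene, IGF2BP1 covered positions 47 to 67 and 49 to 67, METTL1 47 to 67 and 49 to 67, and bio2 47 to 65 and 47 to 66, while neither WDR4 library had a cluster. Leu-TAG2-1 had positions 47 to 66 and 45 to 66 in METTL1 and 45 to 66 in WDR4 replicate 1, and Leu-AAG4-1 had 47 to 65 and 45 to 66 in METTL1. Leu-TAA1 was the distinct tRNA sequence with clusters in the most libraries, 6 of 12. Leu-AAG2, with 4 identical genes, came next together with Tyr-GTA2-1, at 5 libraries each, and WDR4 replicate 2 covered positions 48 to 66 of Leu-AAG2-4. The 22 letters in capitals in Leu-AAG2-4 stood in 5 of the 32 leucine genes, Leu-TAG2-1 among them, and in no gene of another isotype. Reads of this stretch could therefore come from any of the 5. Clusters on several of these genes in a library may repeat the same reads, so the leucine counts may be too high. Of the 24 clusters, 18 ended with G, in the letters TTCG of the T loop.

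Of the 22 clusters that began at base 1, 19 came from the bio2 libraries. Clusters began exactly at the first base of the tRNA in 6 of 15 and 13 of 20 bio2 clusters, in no METTL1 cluster, and in 2 of 13 and 1 of 10 WDR4 clusters. The 19 bio2 clusters of this kind lay on 15 genes of 5 isotypes, glycine, lysine, valine, arginine and glutamate, and were 17 nt to 75 nt wide. Their central 20 nt occurred in 28 places in hg38 for Gly-GCC1-5 in replicate 1 and in 14 for Lys-CTT2-4 in replicate 2. Of these places, 16 and 11 were on tRNA genes. Clusters on several glycine or lysine genes in a library may repeat the same reads, so these counts may be too high. Lys-CTT2-4 in replicate 1 covered the whole gene and 2 nt beyond, and Glu-TTC2-1 in replicate 2 covered all 72 nt. The midpoint of the cluster lay 5′ of the middle of the gene for 40% and 65% of bio2 clusters, 16.7% and 27.3% of METTL1 clusters and 30.8% and 30% of WDR4 clusters. Both bio2 values were above all 4 others, while the comparison of all IGF2BP libraries with METTL1 and WDR4, at 21% ± 30.1 (SD, n = 5) and 26.2% ± 6.52 (SD, n = 4), was not separated by the test (exact permutation test, p = 0.762, adjusted p = 0.857).

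Gly-GCC1, a glycine tRNA with 5 identical genes, had clusters at all 5 genes in bio2, 2 in replicate 1 and 4 in replicate 2, and at no gene in another library. In Gly-GCC1-5 the interval was positions 1 to 33 in replicate 1 and 1 to 32 in replicate 2. Val-AAC2-1 had positions 1 to 32 and 1 to 33, and Arg-TCT1-1 had positions 1 to 17 in both. The initiator methionine tRNA, which starts translation, had 4 clusters, all in bio2, on 2 of its 8 identical genes, and each ended 2 nt past the gene, within the length of the CCA end. Gly-CCC2, with 2 identical genes, had positions 19 to 55 of the first copy in both bio2 libraries, and on the second copy positions 2 to 71 in replicate 1 and 19 to 69 in replicate 2.

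The anticodon, which reads the codon, was covered whole by 18 of 35 bio2 clusters, 4 of 57 METTL1 clusters, 1 of 23 WDR4 clusters and none of the other 4. The mean share of the gene covered by its cluster was 51.0% and 48.1% in bio2, 23.7% and 26.1% in METTL1 and 24.0% and 27.2% in WDR4. Over the 5 IGF2BP libraries with tRNA clusters the mean was 34.98% ± 13.4 (SD, n = 5) against 25.2% ± 1.66 (SD, n = 4), which the test did not separate (exact permutation test, p = 0.333, adjusted p = 0.491). Arg-TCT5-1, a single-copy gene, was the only other repeat within WDR4 beside Tyr-GTA2-1 and Ala-CGC3-1, with the same positions 59 to 74 of 87 in both libraries and no cluster elsewhere.

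The METTL1-WDR4 complex is known to act on tRNAs with the letters RAGGU in the variable loop. Searched as AAGGT or GAGGT on the tRNA strand after the anticodon, these letters stood in 183 of the 428 genes, or 42.8%. Of the 80 METTL1 and WDR4 clusters, 30 lay on such genes, or 37.5%, beside 42.8% of all genes. With 1 cluster per distinct sequence and library the METTL1 and WDR4 mean was 40.6%, also below 42.8%. With clusters found once in the genome it was 51.2%, above 42.8%, and the IGF2BP mean was 30% (exact permutation test, p = 0.343, adjusted p = 0.491). The 42.8% counts genes, and a matching share for distinct sequences or for stretches found once was not computed. With all clusters, the share per library was 29.2% and 42.4% in METTL1, 38.5% and 40% in WDR4, and 26.7% and 30% in bio2, and the 4 leucine clusters of the remaining IGF2BP libraries were on genes without it. The means of 37.5% ± 5.80 (SD, n = 4) and 11.3% ± 15.6 (SD, n = 5) differed before adjustment and not after it (exact permutation test, two-sided p = 0.0397, adjusted p = 0.119), and 3 of the 5 IGF2BP values were 0% from libraries with 1 or 2 clusters. The 5 letters themselves lay inside 2 of the 57 METTL1 clusters, 2 of the 35 bio2 clusters and no WDR4 cluster.

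Clusters were found on 34 of 49 isoacceptors, the tRNAs of one anticodon, and on 21 of 22 isotypes, with the initiator counted apart. Histidine was the isotype without a cluster, and its 9 genes had 1 identical sequence. Leucine carried the most clusters (25), then glycine (14), and then proline, glutamate and lysine with 9 each. In METTL1 and WDR4 leucine (18), proline (9), alanine (7) and tyrosine (7) led, and in bio2 glycine (12), lysine (6) and the initiator (4) did. Genes with the same letters may share reads, so the leucine, glycine and lysine counts may be too high. A total of 12 isotypes with 36 clusters occurred in METTL1 and WDR4 libraries alone, the initiator in bio2 alone, and 8 isotypes with 79 clusters in both groups. METTL1 and WDR4 held 80 of the 119 clusters on tRNA genes. Of the 12 isotypes, cysteine, isoleucine, selenocysteine and tryptophan had 1 cluster each, and asparagine, phenylalanine and serine 2 each. With counts this small, absence from the other group does not show a preference between isotypes.

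**Figure D4:**
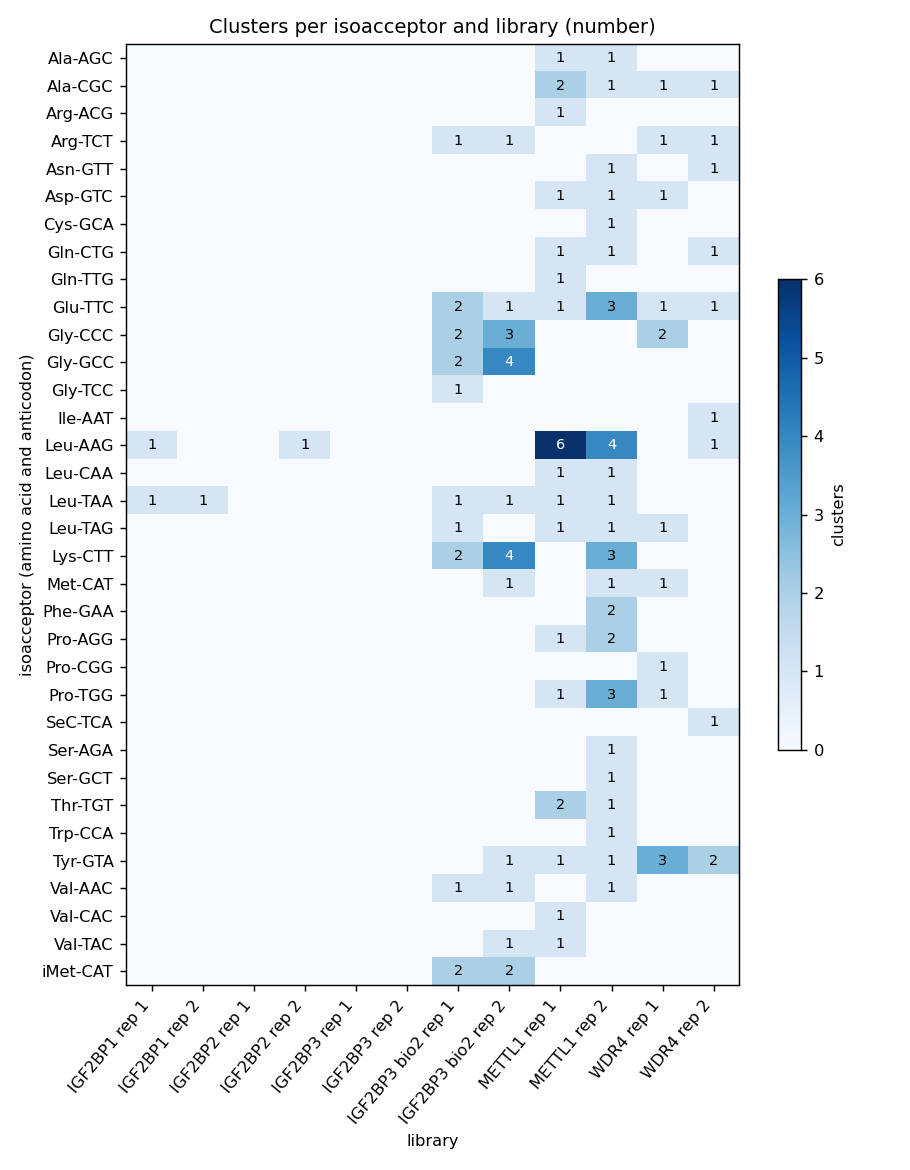
Number of clusters on each isoacceptor (rows) in each of the 12 libraries (columns), with empty cells at 0. Leu-AAG reached 6 clusters in METTL1 replicate 1, the highest cell, and the 4 clusters of the IGF2BP libraries without the bio2 label lay in Leu-AAG and Leu-TAA.

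Isotype by isotype, the percentage of the clusters of a library was compared between the 8 IGF2BP and the 4 METTL1 and WDR4 libraries. Of 21 isotypes, 1 passed after adjustment over the isotypes, or 4.76%. This was alanine, at 0.0224% ± 0.0164 (SD, n = 4) against 0 in all 8 IGF2BP libraries (exact permutation test, two-sided p = 0.00202, the smallest possible, adjusted p = 0.0424). It rested on 2 genes, Ala-CGC3-1 with 5 clusters and Ala-AGC8-1 with 2, and the call was lost when any 1 of 10 of the 12 libraries was left out, with the replicate block and with proteins as units. In these settings the smallest possible p was 0.00303 or more, and 1 isotype alone could not pass the adjustment over 21. The loss therefore does not measure how stable the alanine difference is. Tyrosine came closest to the threshold, at 0.0198% ± 0.00842 (SD, n = 4) against 0.00208% ± 0.00588 (SD, n = 8), with an adjusted p of 0.0636 by the same exact permutation test. Leucine stood at 0.0595% ± 0.0609 (SD, n = 4) against 0.0101% ± 0.0108 (SD, n = 8), with an adjusted p of 0.141.

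Counted by gene, those with 2 to 10 identical copies had a cluster about as often as single-copy genes. Of 208 single-copy genes 36 had a cluster (17.3%), of 209 genes with 2 to 10 copies 35 had one (16.7%), and of the 11 aspartate copies 1 had one (9.09%). By distinct sequence, 36 of 208 with a single copy and 18 of 55 with 2 to 10 copies had one, a higher share in the latter. The sets differed by gene. METTL1 and WDR4 had clusters on 29 single-copy genes and 20 with 2 to 10 copies, and bio2 on 10 and 16. The central 20 nt of a cluster, or the whole of a shorter one, occurred once in hg38 for 57 of the 119 clusters, and in no more than 10 places for all but 14. The share found once was 80% for the 35 clusters with 4 nt or more of trailer and 34.5% for the other 84. In bio2 it was 28.6%, with 29 places at the most, on Gly-GCC1-5. As the mapping dropped reads with over 10 best positions, reads inside such repeated stretches could be lost, and the gene named for a cluster inside an identical copy is uncertain. With only clusters found once, the share on tRNA genes was 0.140% in METTL1 and WDR4 and 0.0217% in the IGF2BP libraries (exact permutation test, p = 0.0121, adjusted p = 0.0857).

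Repeat libraries of METTL1 shared more of their tRNA clusters than of all their clusters. Between METTL1 replicates 1 and 2, 45.6% of the tRNA clusters of both overlapped one of the other library, beside 26.3% of all clusters, a gap for which no test was made. Shared clusters include those on Leu-AAG2-1, Leu-AAG2-2, Leu-AAG2-4 and Leu-TAG2-1, which have the same letters in the covered stretch. The same reads may count there more than once, so the 45.6% may be too high. Between the WDR4 replicates the share was 34.8% beside 27.7%, and between the bio2 replicates 51.4% beside 70.5%. The 4 pairs of a METTL1 and a WDR4 library shared from 23.5% to 30.4% of tRNA clusters, beside 21.4% to 23.6% of all. The 8 pairs of METTL1 or WDR4 with bio2 shared from 0% to 14.6%, beside 12.2% to 13.3% of all clusters. Over the whole series, the 9 same-protein pairs shared 22.1% of tRNA clusters and the 54 different-protein pairs 5.04%, a difference of 17.02 percentage points (one-sided exact permutation test that regroups the libraries into proteins, p = 0.00323). Over all clusters these 9 and 54 pairs shared 43.98% and 26.41%, so same-protein pairs shared more there too. The test therefore does not show a difference particular to tRNA clusters. In 5 of the 9 and 22 of the 54 pairs one library had no tRNA cluster, which sets the share of tRNA clusters to 0%. Over the 9 libraries with a tRNA cluster, 4 same-protein pairs shared 49.6% and 32 different-protein pairs 8.50%, a difference of 41.1 percentage points (the same exact permutation test, p = 0.00106, the smallest possible). In the same pairs the share over all clusters was 48.9% and 22.7%, and the IGF2BP1 pair among them rests on 3 tRNA clusters. Pairs that share a library are not independent, and the test permutes libraries for that reason.

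**Figure D5:**
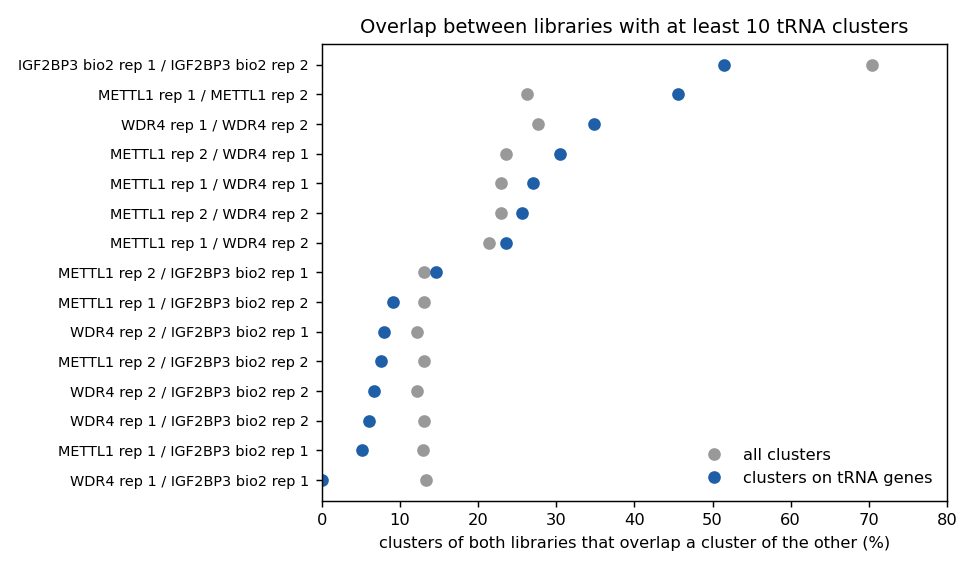
Percentage of clusters of both libraries of a pair that overlap a cluster of the other on the same strand, for clusters on tRNA genes (blue) and all clusters (grey), in pairs of libraries with at least 10 tRNA clusters each. Same-protein pairs are the top 3, METTL1 with WDR4 follows at 23.5% to 30.4%, and METTL1 or WDR4 with bio2 lies at 14.6% or less.

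At the level of merged sites, 74 sites were found, of which 46 had a cluster in 1 library. METTL1 had 43 tRNA sites, 13 of them in both of its libraries (30.2%), and WDR4 had 19, of which 4 were in both (21.1%). Among all merged sites these shares were 14.7% and 15.7%. The 13 METTL1 sites include the leucine genes with the same covered letters, so they may not all be separate cases. IGF2BP3 had 4 libraries, so a site in 2 or more of 4 is a looser measure than a site in both of 2. Of its tRNA sites, 9 of 26 were in 2 or more libraries (34.6%), beside 58.6% of all sites. All 26 tRNA sites came from the bio2 libraries, while the 58.6% draws on all 4 libraries. IGF2BP1 had 1 of 2, the Leu-TAA1-1 site, and IGF2BP2 had 1 site in 1 library.

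The distinct tRNA sequences of METTL1 and WDR4 overlapped in 10, or 28.6% of the 35 in METTL1 and 55.6% of the 18 in WDR4. These were Ala-CGC3, Asp-GTC2, Glu-TTC2, Glu-TTC3, Leu-AAG2, Leu-TAG2, Met-CAT1, Pro-TGG3, Gln-CTG1 and Tyr-GTA2. Leu-AAG2 and Leu-TAG2 have the same letters in the covered stretch, so they may not be separate cases. Bio2 shared 5 of its 17 sequences with METTL1 and WDR4 together (29.4%, or 11.6% of their 43), namely Glu-TTC2, Lys-CTT2, Lys-CTT4, Leu-TAA1 and Tyr-GTA2. On Lys-CTT4-1 the bio2 cluster covered positions 1 to 57 and the METTL1 cluster positions 25 to 44. Of all 55 sequences, 32 had clusters in 1 library, 12 in 2, 6 in 3, 2 in 4, 2 in 5 and 1 in 6.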

How the data were processed

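The authors, as their methods state, removed poor reads, adapters and duplicate reads with programs of the FASTX toolkit, mapped the rest with bowtie, allowing 3 mismatches and dropping reads with more than 10 best positions, and called clusters with PARalyzer. Per the labels the build was hg38. Tool versions and PARalyzer settings were not given in the sources used here. The deposited files list one interval per cluster and library, with no count or score, and starts were read as counted from 1 with ends included.

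RefSeq lists tRNA genes without a strand, so each gene was read on both strands of hg38, scored for the letters tRNAs share, and kept with a score of at least 10 and a gap of at least 3 between strands. The 15 genes left out held no cluster. The predicted tRNA track of GENCODE release 44 was not used here, and GENCODE gave the mitochondrial tRNA genes. The planned list without pseudogenes is this list, as RefSeq keeps them apart.

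Libraries were units, and 8 IGF2BP libraries were compared with 4 METTL1 and WDR4 libraries by exact permutation of the library labels, two-sided on the difference of means, with a threshold of 0.05 after Benjamini-Hochberg adjustment over 9 results or 21 isotypes. Libraries without a tRNA cluster have no value for positions. The labels do not say that replicates were separate cultures, while the methods describe plates seeded for each replicate, and p-values measure the spread between libraries. Cluster numbers of 4581 to 15701 per library set the precision of shares.

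Distinct sequences named were the 12 found in the most libraries, up to 3 that repeat in the libraries of a protein and are rarest in others, and those in all 4 METTL1 and WDR4 libraries. Thr-TGT6, Val-TAC2, Val-AAC2, Lys-CTT4, Pro-CGG2 and the initiator were named after their values were seen, as were the classes of covered part. The members and lists were chosen with earlier results of these data known. Alternatives are given in the closing section. Scripts in Python 3.11.15 with numpy 2.4.6, scipy 1.17.1 and pysam 0.24.0 passed 9 of 9 checks on simulated data.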

Additional observations from a re-analysis of the deposited data

Results flagged for a closer look

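Among the 5 IGF2BP libraries with a tRNA cluster, the share of tRNA clusters reaching past the 5′ gene end was 6.67% in IGF2BP3 bio2 replicate 1 and 0% in the other 4, a gap equal to the whole range of the group. It was 1 of 16 groups of values examined in this way, each of which chance would mark about 1 time in 20 if its values were normally distributed. That rate does not hold here, because with the other 4 values at 0 any nonzero value would be marked. The 6.67% is 1 of 15 clusters, on Gly-GCC1-3, from 3 nt before the gene to position 48.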

How the results depend on the processing

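Of 165 recomputed values that had a direction and a test able to reach the threshold before adjustment, 145 kept their direction and their side of it, and 128 of these had not passed at the outset. The antisense share, 0 throughout, and 9 values with proteins as units are not among them. Without the bio2 libraries the share on tRNA genes differed by 0.241 percentage points and the distinct sequences by 2.06 per 1000 clusters, and both then passed. As the bio2 libraries had the highest IGF2BP values of both, leaving them out separated the groups and set this outcome. With clusters at or above the median width the share differed by -0.0427. Leaving out single libraries, the share difference ranged from 0.127 to 0.218, the share past the 3′ end from 39.9 to 44.9 percentage points, the motif share from 23.3 to 30.8, the midpoint share from -0.0728 (without either IGF2BP1 library or IGF2BP2 replicate 2) to 16.2, and the sharing difference from 11.1 to 22.6 with p up to 0.0200 by the exact permutation test. Isotypes that passed numbered 0 to 3 when single libraries were left out, 0 with proteins as units and 3 without bio2 (alanine, glutamate and tyrosine). All IGF2BP clusters on glutamate and tyrosine genes lay in the bio2 libraries. With a library left out, the replicate block or proteins as units, 1 isotype alone could not pass after adjustment, even at the smallest possible p. With the replicate block, which permutes within replicate number, no isotype passed, and the share difference of 0.172 had p = 0.0844 by the exact permutation test. Differences between replicates correlated across 21 isotypes from -0.428 to 0.613 over 6 pairs of groups, so numbers were not taken as pairs. Added after seeing the data were the tRNA pseudogenes (share difference 0.178, with 1 more cluster in each METTL1 library), clusters found once in the genome, the distance of 4 nt past the gene, and sharing among libraries with a tRNA cluster. Proteins as units cannot give p below 0.1. Depth per cluster is unknown, abundance of tRNA was not measured, and multi-copy tRNAs may be under-called, none of which was tested.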

Other observations

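Within 30 nt of a tRNA gene but not on it, 3 clusters lay after a gene and none before one. Of these, 2 were at the same place, 13 nt after Leu-TAG3-1, in both bio2 libraries, and 1 was 2 nt after Ser-TGA1-1 in WDR4 replicate 2. A tRNA pseudogene, Glu-CTC12-1, had positions 24 to 43 covered in both METTL1 libraries and in no other library. These positions are those covered in Glu-TTC2-2 and Glu-TTC3-1 in METTL1 replicate 2. On chromosome 6, which holds 154 of the 428 tRNA genes, 18 genes had a cluster, while on chromosome 16 it was 9 of 26.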
